A study of Rattus norvegicus with 6 samples.

Results

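The 5p and 3p arms of 4 rat microRNA hairpins, miR-325, miR-342, miR-361 and miR-674, were measured by small RNA sequencing in the peri-infarct cortex of stroke rats, 8 mature miRNAs among the 493 that were counted. The 4 hairpins are unrelated in sequence and were selected on their measured counts: both arms had a mean count above 200 over the 6 libraries, and the arms changed in opposite directions between the groups. The difference between the groups therefore chose these miRNAs, and their fold changes and ratio shifts are given as a description, without a test. All 8 arms were found in the counts and all 8 passed the filter on low counts, with a smallest count of 213 in any library.

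Tissue came from 6 male Sprague-Dawley rats, 3 for each of the MCAO and MCAO + rTMS groups, with 1 library for each rat. In every rat the right middle cerebral artery was blocked for 90 min with a filament and then reopened (middle cerebral artery occlusion, MCAO), so both groups carried an infarct and no sham rats were sequenced here. The MCAO + rTMS rats then received 10 Hz repetitive transcranial magnetic stimulation, listed as 10 min per day for 7 days, from a coil above the right motor cortex, and the MCAO rats received none. The methods describe short trains of pulses with longer rests between them and state no length in minutes. The labels place the MCAO tissue at day 7 and state no day for the tissue of the stimulated rats. A supplementary heading of the study dates its miRNA list to a week after the occlusion, whereas its methods begin the stimulation a day after reperfusion and continue it for a week. Any difference in collection time cannot be told apart from the stimulation.

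A miRNA gene is transcribed as a longer RNA that folds back on itself. Drosha and Dicer cut out a short duplex of the 5p and the 3p arm, and usually 1 arm is loaded into an Argonaute protein and kept while its partner is degraded. Both arms are counted in the same library, so their ratio does not depend on how the library is scaled. Because they also come from the same precursor molecule, the ratio can reflect events after transcription, as well as any unequal capture of the arms in sequencing. Each arm has its own seed (bases 2 to 8), the stretch that mostly decides which messenger RNAs are bound, so the arms of 1 hairpin have different targets.

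Mature sequences of 7 of the 8 arms were taken from RefSeq (build GRCr8) and are shown 5′ to 3′, with the seed in capitals, because the arms are compared throughout. For rno-miR-674-3p only the name is given.
rno-miR-325-5p: cCUAGUAGgugcucaguaagugu
rno-miR-325-3p: uUUAUUGAgcaccuccuaucaa
rno-miR-342-5p: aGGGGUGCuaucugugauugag
rno-miR-342-3p: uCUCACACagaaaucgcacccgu
rno-miR-361-5p: uUAUCAGAaucuccagggguac
rno-miR-361-3p: cCCCCAGGugugauucugauucgu
rno-miR-674-5p: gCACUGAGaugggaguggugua

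The 7 seeds are all different. None of them occurred in another tested miRNA with a RefSeq sequence, of 406 compared, so no larger seed family of these arms was seen among those compared. The arms were 22 to 24 bases long. U was the first base of miR-325-3p, miR-342-3p and miR-361-5p, C that of miR-325-5p and miR-361-3p, A that of miR-342-5p and G that of miR-674-5p.

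The precursors are shown next, with the mature arms in capitals, to place the arms against each other in the fold (build GRCr8, while the submitters' processing notes name rn6 for the counts).
rno-miR-325, chrX:74523514-74523611, minus strand: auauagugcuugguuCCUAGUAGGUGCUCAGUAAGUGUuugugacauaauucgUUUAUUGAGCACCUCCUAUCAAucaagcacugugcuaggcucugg
rno-miR-342, chr6:133329655-133329753, plus strand: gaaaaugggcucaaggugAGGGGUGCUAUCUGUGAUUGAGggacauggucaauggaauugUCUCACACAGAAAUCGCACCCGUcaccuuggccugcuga
rno-miR-361, chrX:82438463-82438532, minus strand: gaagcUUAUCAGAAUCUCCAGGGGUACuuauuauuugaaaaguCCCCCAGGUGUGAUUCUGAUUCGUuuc
rno-miR-674, chr3:124507170-124507246, plus strand: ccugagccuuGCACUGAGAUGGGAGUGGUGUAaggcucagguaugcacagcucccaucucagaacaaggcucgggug

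The hairpins lie apart in the genome, and their surroundings differ. In RefSeq, miR-342 lies within Evl, which encodes an actin regulator of the Ena/VASP family, on the same strand. It also lies within a long non-coding RNA gene whose strand was not available here. miR-361 lies within Chm, which encodes a Rab escort protein, on the same strand, and miR-325 within a long non-coding RNA gene on the same strand. No other gene of the table overlaps miR-674. The table gives gene borders only, so introns and exons are not separated here. The hairpin sequences were 70 to 99 bases long and folded by RNAfold with a minimum free energy between -53.2 kcal/mol (miR-674) and -27.8 kcal/mol (miR-361). In these folds 19 of 23 bases of miR-325-5p and 19 of 22 bases of miR-325-3p were paired, against 17 of 22 and 17 of 24 for miR-361-5p and miR-361-3p.

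Levels are given as CPM, the usual measure of a miRNA's count relative to its library's total, here with the total scaled by edgeR's TMM factors. Library totals ranged from 10492610 to 15411620 counts. Between the MCAO + rTMS and MCAO groups the 452 tested miRNAs had a median log2 fold change of -0.21, beside which the values of single arms can be read. In bulk tissue, a lower level in each cell and fewer cells of a type cannot be told apart.

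miR-325 was counted mainly as its 5p arm. miR-325-5p was at 178, 154 and 119 CPM in the MCAO libraries (replicates 1, 2 and 3, in this order throughout) and at 294, 253 and 331 CPM in the MCAO + rTMS libraries. miR-325-3p was at 48.7, 38.0 and 43.0 CPM in the MCAO libraries and at 32.5, 25.3 and 20.7 CPM in the MCAO + rTMS libraries. All 3 stimulated rats were therefore above all 3 MCAO rats in the 5p arm and below them in the 3p arm. The log2 fold change was 0.96 (standard error 0.22) for miR-325-5p and -0.72 (standard error 0.22) for miR-325-3p.

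miR-342 was counted mainly as its 3p arm, which is known as an abundant miRNA of blood and immune cells. miR-342-3p was at 275, 372 and 376 CPM in the MCAO libraries and at 138, 215 and 135 CPM in the MCAO + rTMS libraries. miR-342-5p, the scarcest of the 8 arms in the MCAO group, was at 16.2, 21.7 and 19.8 CPM in the MCAO libraries and at 36.3, 47.8 and 62.8 CPM in the MCAO + rTMS libraries. Here the abundant arm was the lower one in the stimulated rats, and the groups did not overlap in either arm. The log2 fold change was -1.07 (standard error 0.25) for miR-342-3p and 1.35 (standard error 0.25) for miR-342-5p.

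Since miR-342-3p is known from immune cells, the miRNAs listed as markers of immune cells and microglia were set beside it. Their summed level was 1134 to 1252 CPM in the MCAO libraries and 605 to 814 CPM in the MCAO + rTMS libraries. By edgeR's quasi-likelihood test (adjusted p under 0.05), 5 of the 6 markers were lower, namely miR-223-3p, miR-142-3p, miR-142-5p, miR-155-5p and miR-150-5p, none was higher, and none was listed at 0 in all libraries. Of all 452 tested miRNAs, 127 were called lower. In the MCAO libraries most of the summed level was miR-146a-5p, which was not called, and miR-150-5p. These averaged 618 and 489 CPM there, against 11.7, 4.49 and 8.40 CPM for miR-223-3p, miR-142-3p and miR-142-5p. The median log2 fold change of the 6 markers was -1.26, beside -1.07 for miR-342-3p and 1.35 for miR-342-5p. Whether cell content has a part in the level of miR-342-3p was not tested.

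miR-361 was counted mainly as its 3p arm and was the most abundant of the 4 hairpins. miR-361-3p was at 582, 746 and 596 CPM in the MCAO libraries and at 938, 1274 and 1774 CPM in the MCAO + rTMS libraries. miR-361-5p was at 100.4, 109 and 129 CPM in the MCAO libraries and at 69.4, 71.9 and 26.2 CPM in the MCAO + rTMS libraries. With TMM factors the groups did not overlap in either arm, and MCAO + rTMS replicate 3 had both the highest 3p level and the lowest 5p level. The log2 fold change was 1.05 (standard error 0.26) for miR-361-3p and -1.01 (standard error 0.37) for miR-361-5p, and without that library the values were 0.80 and -0.65.

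miR-674, a hairpin known from rodents, was also counted mainly as its 3p arm. miR-674-3p was at 414, 262 and 201 CPM in the MCAO libraries and at 621, 633 and 1743 CPM in the MCAO + rTMS libraries. The last value, of MCAO + rTMS replicate 3, lay far above the other two stimulated rats. miR-674-5p was at 87.8, 64.2 and 53.3 CPM in the MCAO libraries and at 41.0, 33.6 and 28.6 CPM in the MCAO + rTMS libraries, again without overlap. The log2 fold change was 1.77 (standard error 0.47) for miR-674-3p, and 1.13 without MCAO + rTMS replicate 3. For miR-674-5p it was -0.99 (standard error 0.25).

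**Figure D1:**
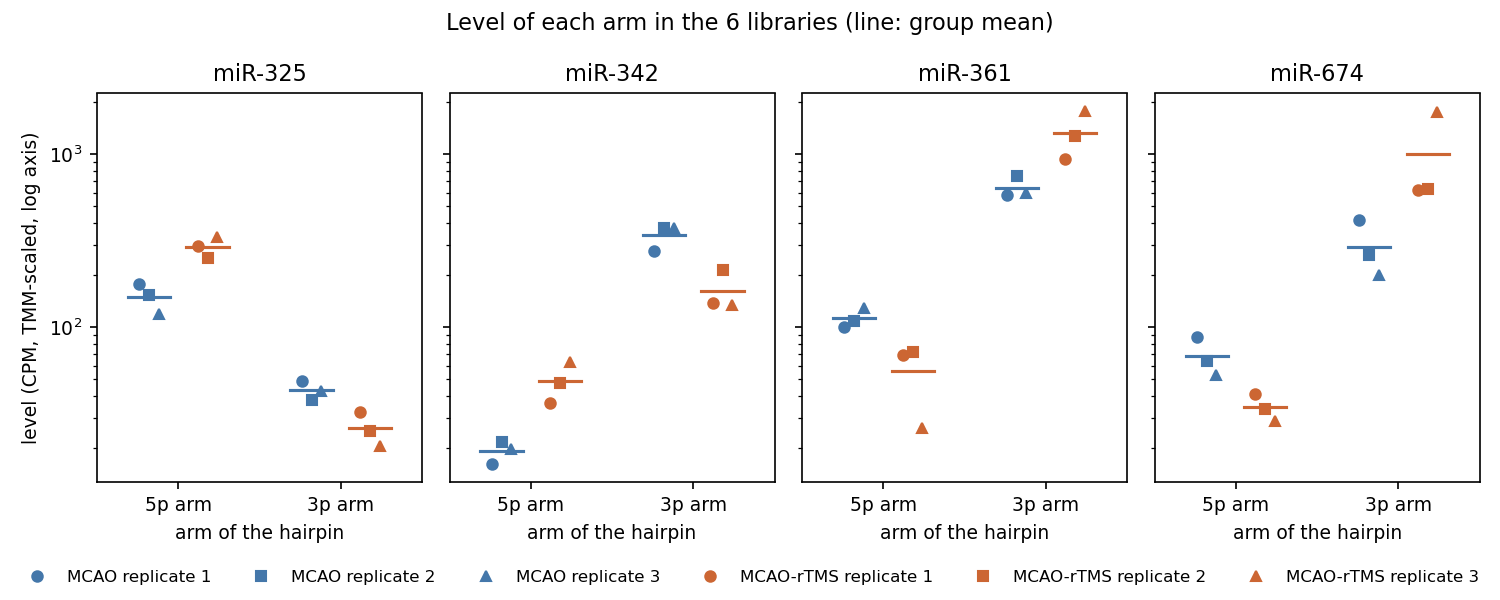
Level of the 5p and 3p arm of each hairpin in the 6 libraries, in TMM-scaled CPM on a log axis; points are single rats and lines are group means (n = 3). In each panel 1 arm is higher and the other lower in the MCAO + rTMS libraries, and in miR-674-3p a single library at 1743 CPM pulls the mean up.

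The direction of all 8 arms was the same under each scaling that was tried, although the sizes moved together with the median of all miRNAs. With library totals alone, the log2 fold change was 0.34 for miR-325-5p, 0.69 for miR-342-5p, 0.40 for miR-361-3p and 1.09 for miR-674-3p, which were the higher arms. The lower arms were then at -1.33 for miR-325-3p, -1.69 for miR-342-3p, -1.60 for miR-361-5p and -1.59 for miR-674-5p. The median of all tested miRNAs was -0.80 in that fit.

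At an adjusted p under 0.05, the quasi-likelihood test of edgeR called all 8 arms and 250 of the 452 miRNAs, or 55.3%. With TMM factors the groups did not overlap in any of the 8 arms, nor in 66.8% of all tested miRNAs. These counts are given only as the background, since the contrast behind them chose the members. Of the 250 calls 123 were higher and 127 lower, but library totals alone gave 55 higher and 208 lower calls, and upper-quartile factors gave 85 higher against 172 lower. With 1 library left out, 5 to 7 of the 8 arms and 179 to 253 of all tested miRNAs were called.

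The ratio of the arms needs no scaling. For miR-325 the log2 ratio of the 5p to the 3p count stood at 1.87, 2.02 and 1.47 in the MCAO libraries, in the order of their replicate numbers, and at 3.18, 3.32 and 4.0 in the MCAO + rTMS libraries. Each stimulated rat was thus above each MCAO rat. The mean was 1.78 ± 0.29 (SD, n = 3) against 3.50 ± 0.44 (SD, n = 3), a shift of 1.71 (standard error 0.30) toward the 5p arm. As a share of the counts of both arms, miR-325-5p went from 77.4% ± 3.54 to 91.7% ± 2.14 (SD, n = 3 each).

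For miR-342 the log2 ratio was -4.09, -4.10 and -4.25 in the MCAO libraries, the closest agreement between rats among the 4 hairpins, and -1.93, -2.17 and -1.11 in the MCAO + rTMS libraries. The shift was 2.41 (standard error 0.33), also toward the 5p arm, so that the ratio was 5.32-fold higher. The 5p share went from 5.35% ± 0.31 to 23.6% ± 7.17 (SD, n = 3 each), and the 3p arm was still the more abundant one in each of the 6 libraries.

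For miR-361 the log2 ratio was -2.54, -2.77 and -2.21 in the MCAO libraries and -3.76, -4.15 and -6.08 in the MCAO + rTMS libraries. The shift was -2.15 (standard error 0.74), toward the 3p arm. The 5p share was 15.1% ± 2.50 against 4.56% ± 2.80 (SD, n = 3 each). Without MCAO + rTMS replicate 3 the shift was -1.45.

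For miR-674 the log2 ratio was -2.24, -2.03 and -1.91 in the MCAO libraries and -3.92, -4.23 and -5.93 in the MCAO + rTMS libraries. The shift of -2.63 (standard error 0.63) was the widest of the 4 hairpins and again toward the 3p arm. The 5p share was 19.4% ± 1.77 against 4.28% ± 2.38 (SD, n = 3 each). Without MCAO + rTMS replicate 3 the shift was -2.02, and that of miR-342, at 2.10, was then the widest.

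**Figure D2:**
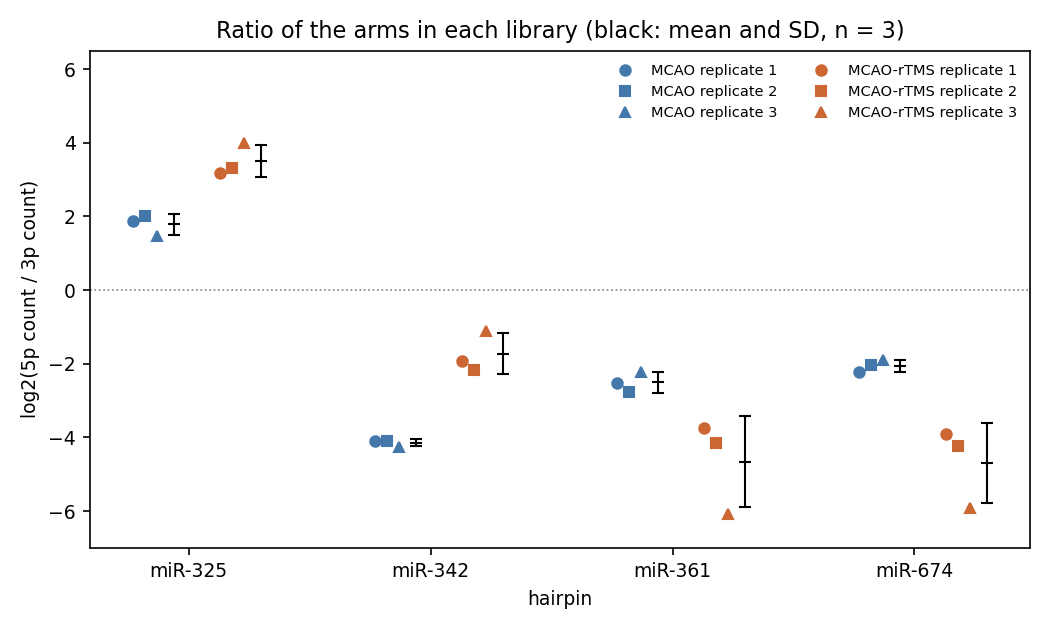
Log2 ratio of the 5p to the 3p count of each hairpin in the 6 libraries; points are single rats, and black marks are the mean and SD of a group (n = 3). The groups are apart in all 4 hairpins, upward for miR-325 and miR-342 and downward for miR-361 and miR-674, and MCAO + rTMS replicate 3 is the point farthest from the MCAO libraries each time.

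The arm favoured in the stimulated rats was the arm that already had more counts in the MCAO group in 3 hairpins, miR-325, miR-361 and miR-674, and the scarcer arm in miR-342. Over all 62 hairpins with both arms above a mean count of 200, the shift was toward the arm with more counts in the MCAO group in 36. MCAO + rTMS replicate 3 was the stimulated library farthest from its group's median ratio in all 4 hairpins and in 46 of the 62, and MCAO replicate 3 was the farthest MCAO library in 3 of the 4 and in 33 of the 62.

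The sum of both arms followed the abundant arm. For miR-325 it was 193 ± 32.5 CPM (MCAO) against 319 ± 37.6 CPM (MCAO + rTMS), and for miR-361 it was 754 ± 89.7 against 1385 ± 398 CPM (SD, n = 3 each). For miR-674 it was 360.8 ± 127 against 1033 ± 639 CPM, and for miR-342 it was lower in the stimulated rats, at 212 ± 45.5 against 360.3 ± 60.0 CPM (SD, n = 3 each). With TMM factors the groups did not overlap in any of the 4 sums, nor in 69.4% of the 62 hairpins. The sums were not formed with another scaling, and a gap in a sum that was higher in the stimulated rats can close without the factors. A log2 fold of the mean sums of 0.72 for miR-325, -0.77 for miR-342, 0.88 for miR-361 and 1.52 for miR-674 thus stood beside arms that went in opposite directions.

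The 4 hairpins were then set among the 62, of the 157 hairpins with both arms in the counts, that had a mean count above 200 in both arms. By size of the ratio shift miR-674 ranked 5, miR-342 ranked 7, miR-361 ranked 11 and miR-325 ranked 17, while the median size over the 62 was 0.87. Outside the 4, the largest shift toward the 3p arm was -3.12, for miR-30e, and the largest toward the 5p arm was 2.46, for let-7b. The arms had fold changes of opposite sign in 26 hairpins, and in 11, or 17.7%, neither arm overlapped between the groups as well, the 4 described here included. With the arm-by-group term of edgeR's quasi-likelihood test, 29 hairpins or 46.8% had an adjusted p under 0.05, 16 toward the 5p and 13 toward the 3p arm, and all 4 hairpins were among them. The ratios of the groups did not overlap in any of the 4, nor in 58.1% of the 62. The weaker arm of miR-342 had a mean count of 421.5 and that of miR-325 a mean count of 476. Nearest to the limit of 200 were miR-667, inside it at 201, and miR-28, outside it at 193.

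**Figure D3:**
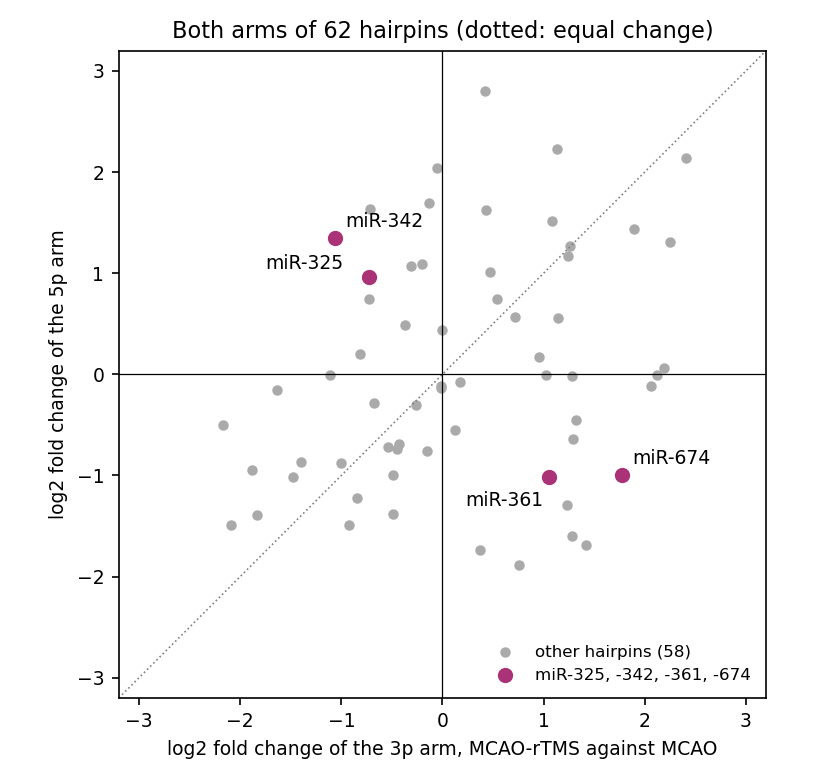
Log2 fold change (MCAO + rTMS against MCAO, edgeR with TMM factors) of the 5p arm against that of the 3p arm for 62 hairpins, with the line of equal change dotted. miR-325 and miR-342 lie at upper left (5p higher, 3p lower), and miR-361 and miR-674 at lower right.

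Over the 6 libraries, the hairpin whose log2 ratio ran most alike was miR-99b for miR-325 (Pearson's r 0.99), miR-667 for miR-342 (0.99), miR-409a for miR-361 (0.99) and miR-378a for miR-674 (0.97), out of 58 compared with each. These correlations describe 6 points that share libraries and group difference. The shifts of miR-99b, miR-667 and miR-409a were smaller, at 0.42, 0.86 and -0.82, and that of miR-378a was -1.91.

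Base composition was compared because the arms of a hairpin can differ in it. The GC content was 47.8% in miR-325-5p against 36.4% in miR-325-3p, 52.2% in miR-342-3p, where miR-342-5p differed by -2.17 points, and 45.5% in miR-361-5p against 54.2% in miR-361-3p. The ratio thus shifted toward the GC-richer arm in miR-325 and miR-361 and toward the GC-poorer arm in miR-342. Among the other hairpins whose arms differed in GC content, the shift was toward the GC-richer arm in 30 of 48. Over 50 other hairpins, Spearman's rho between the GC difference of the arms and the shift was 0.24.

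The same slight tendency was seen for single miRNAs. Over 257 other miRNAs with a mean count above 200, Spearman's rho of the log2 fold change with GC content was 0.27, and the median log2 fold change was -0.36 in the third lowest in GC content and 0.37 in the third highest. GC content also ran with differences between libraries of the same group. The rho was 0.26 for MCAO + rTMS replicate 3 against replicates 1 and 2, and 0.31 for MCAO replicate 3 against replicates 1 and 2, over the same 257 miRNAs. After the line through the other hairpins was subtracted, the ratio shift was 1.37 for miR-325, 2.45 for miR-342 and -1.92 for miR-361. The part of base composition in the arm ratios and in the change of single arms was not tested further.

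**Figure D4:**
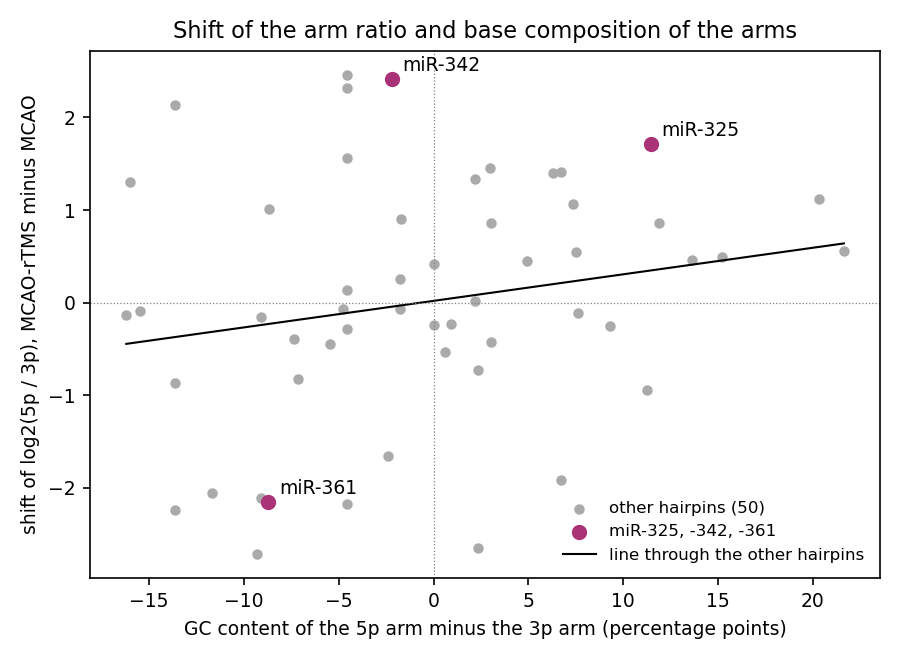
Shift of the log2 5p to 3p ratio (MCAO + rTMS minus MCAO) against the GC content of the 5p arm minus that of the 3p arm, in percentage points, for 53 hairpins with both sequences, with the line through the 50 others. At their GC differences the line stands at 0.35 for miR-325, -0.04 for miR-342 and -0.23 for miR-361. These hairpins were chosen because their arms changed in opposite directions, so their distance from the line is no test of base composition.

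The levels of the other miRNAs listed as markers are given by cell type. The 4 neuronal markers summed to 323535 to 420388 CPM in the MCAO libraries and 423227 to 610344 CPM in the MCAO + rTMS libraries. The higher sum came from miR-128-3p, the 1 marker that was higher; miR-138-5p was lower, and the median log2 fold change of the 4 was -0.32. Of the 2 oligodendrocyte markers only miR-338-3p was tested, at 13.9 to 28.9 CPM in the MCAO and 11.6 to 13.6 CPM in the MCAO + rTMS libraries, without overlap and without a call. In the MCAO and MCAO + rTMS libraries, the 2 red blood cell markers summed to 141 to 302 and 513 to 637 CPM with 1 higher and 1 lower, the 2 endothelial markers to 2993 to 6298 and 2017 to 3293 CPM with 1 lower, and the 4 muscle markers to 103 to 163 and 252 to 403 CPM with 2 higher and 2 lower. Their part in the arm ratios was not tested.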

How the data were processed

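Small RNA libraries from the peri-infarct cortex of 3 MCAO and 3 MCAO + rTMS rats were sequenced on an Illumina instrument, with read analysis by a company. The authors deposited raw read counts per mature miRNA for 493 miRNAs, not normalized. The submitters' processing notes name bcl2fastq, BWA, DESeq2 and the build rn6, without versions; how reads matching several miRNAs were counted is not given in the sources used here. A smaller deposited table repeats counts of miRNAs selected by the authors and was not used. No count from 1 to 9 occurs. Reads carry no molecular identifiers, so totals limit counting precision only. The methods give 3 rats a group, taken here as 1 rat for each library, and p-values measure only the spread between these libraries.

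The tests ran in edgeR 4.0.16 under R 4.3.3 (filterByExpr, TMM factors, quasi-likelihood test, Benjamini-Hochberg adjustment over 452 miRNAs). Standard errors of fold changes were taken as the absolute log2 value over the root of the F statistic. For the arms, hairpins were rows and the 5p and 3p counts of each library were columns, with terms for library, arm and arm by group. Both fits were also run on counts simulated with known changes, without the difference in scaling factors between these groups built in. That run checked the code only, and its outcome is not given here. Sequences were matched by name to RefSeq (GRCr8), 413 of the tested miRNAs having 1 mature sequence, and folded with RNAfold 2.7.2. Figures used Python 3.11.15 and matplotlib 3.10.9.

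The 8 arms, the lists and the tests were chosen with earlier results of these data known. Beyond the 8 arms, the text names markers from a fixed list, the largest shift in each direction, the most alike hairpins and those next to the count limit of 200. Single miRNAs were also tested with upper-quartile or RLE factors, with library totals, without the filter, and with DESeq2 1.42.0 and limma-voom. The hairpin count was repeated with limma 3.58.1 on log ratios and other count limits, and the ratio shifts with summed counts, a pseudocount of 10 and edgeR's fold changes. All 3 were repeated with a replicate block and with each library left out. Markers, sums of arms, the overlap of levels between groups and correlations had no alternative. The GC lines were added after seeing the data.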

Additional observations from a re-analysis of the deposited data

How the results depend on the processing

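The 4 ratio shifts kept their direction in all alternatives run, though some of these, named below, could not have reversed it. They moved by less than the spread between rats under summed counts, a pseudocount of 10 and edgeR's fold changes. The same held for a line on GC content, for the 3 hairpins with both sequences, which is no test of base composition. Leaving out 1 library of 3 cannot move a shift by more than that spread. Nor can it reverse a shift where the ratios of the groups do not overlap, so it is no measure there. The replicate block cannot change the mean shift, since each replicate number has 1 library in each group. With 1 library left out the shifts ranged from 1.46 to 1.87 for miR-325, 2.10 to 2.63 for miR-342, -2.61 to -1.45 for miR-361 and -3.02 to -2.02 for miR-674. The 8 fold changes, of arms chosen for their opposite directions, kept their direction in all alternatives run. By more than that spread they moved with upper-quartile factors to 0.68 for miR-325-5p and -1.02 for miR-325-3p; with library totals only to 0.34 for miR-325-5p, -1.33 for miR-325-3p, 0.69 for miR-342-5p, -1.69 for miR-342-3p, 0.40 for miR-361-3p and -1.59 for miR-674-5p; and after subtraction of a line on GC content to -0.42 for miR-325-3p. Both scalings moved the median of all miRNAs, to -0.50 and -0.80.

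Of the 8 arms, which this contrast chose, 8 were called with DESeq2, limma-voom and upper-quartile factors, where 260, 256 and 257 of all miRNAs were. It was 7 with RLE factors or no filter (246 and 240 of all; miR-361-5p lost) and 6 with library totals only (263 of all; miR-325-5p and miR-361-3p lost). It was 5 without MCAO replicate 1, 2 or 3 (181, 179 and 210 of all) or MCAO + rTMS replicate 2 (183 of all), and 7 without MCAO + rTMS replicate 1 or 3 (216 and 253 of all). miR-361-5p was lost in 5 of these 6 fits and miR-325-3p in 5. The number of hairpins called, 29 of 62, was 49 of 97 with a mean count above 50 in both arms, where more hairpins were tested, and 22 to 36 with 1 library left out; miR-361 was not among the 22, called without MCAO replicate 3.

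The replicate numbers are shared by different rats, and the deviations of same-numbered libraries correlated at 0.20, -0.12 and -0.11. Those of differently numbered libraries ranged from -0.28 to 0.30. With a replicate block 180 miRNAs were called against 250, miR-361-5p and miR-674-3p lost their call, and limma on log ratios called 29 hairpins, against 31 without the block. The smallest count of the 8 arms in any library was 213, of miR-325-3p.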
